A study of Mus musculus with 6 samples.

Results

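The T-cell receptor J gene segments were taken from the deposited table of mouse genes as the 70 rows whose biotype was TR_J_gene, of 54532 rows in all. They were grouped by locus from the start of the gene name. The alpha locus on chromosome 14 gave 51 Traj segments, the beta locus on chromosome 6 gave 13 Trbj segments, the delta locus on chromosome 14 gave 2 Trdj segments and the gamma locus on chromosome 13 gave 4 Trgj segments. The segments were 46 to 66 bases long in the authors' gene length. In each group 3 RNA sequencing libraries were made from T cells grown together with ID8, an ovarian cancer line of the mouse. Before the co-culture the tumour cells had received 40 µM cisplatin (cisplatin) or PBS (control). In both groups the T cells came from spleens of C57BL/6 mice aged 6 to 8 weeks, were isolated with a Pan T kit, kept with IL-2 and activated beforehand for 72 h with beads against CD3 and CD28. The labels do not say that the 3 libraries of a group came from separate mice or cultures, so p-values measure the spread between these libraries, which may be technical.

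A T-cell receptor chain is encoded by gene segments that are joined in the DNA while the T cell develops in the thymus. A V segment, in the beta and delta chains a D segment, and a single J segment together form the exon for the variable domain, and splicing then joins the J segment to a constant region exon. The J segment encodes the end of the CDR3 loop, which touches the peptide, and the conserved turn behind it. A T cell clone keeps its rearranged segments for life, and a bulk library pools the J segment reads of many clones. Whether a read on a J segment counts the choice of a clone was not tested. Traj1, annotated as a pseudogene and not among the 70, had a mean of 55.5 FPKM in the cisplatin and 35.7 in the control libraries. Traj7, the Traj segment with the most reads among the 70, had 27.5 and 20.4. Traj1 has 29 bases and Traj7 has 59, and their mean reads over all libraries were alike, 42 and 44.7. In mice Trbc1 and Trbc2 lie behind the Trbj1 and Trbj2 clusters, and the Traj segments lie in a long row before Trac.

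The sequences below show how a J segment is built, for the segment with the most reads in each of the 2 large loci (Trbj2-7 and Traj7), for 4 of the segments called (Trbj2-4, Trbj2-5, Traj17 and Traj35) and for Traj20, a called segment in which the motif was not found. They were read from the transcripts of GENCODE release M21 (build GRCm38, also called mm10), in which all 70 segments had the same positions as in the table. Capitals mark the letters of the conserved turn, phenylalanine or tryptophan followed by glycine, any residue and glycine. On the sense strand, the letters searched began with TTTGG for the phenylalanine codons or with its other spelling TTCGG, and for tryptophan the start searched was TGGGG. After 4 further bases of any kind, each ended with GG.
Trbj2-7: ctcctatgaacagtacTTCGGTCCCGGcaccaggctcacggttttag
Traj7: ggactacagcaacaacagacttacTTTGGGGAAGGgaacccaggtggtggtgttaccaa
Trbj2-4: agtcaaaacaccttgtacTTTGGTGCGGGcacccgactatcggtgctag
Trbj2-5: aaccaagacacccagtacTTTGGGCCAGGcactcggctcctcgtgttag
Traj17: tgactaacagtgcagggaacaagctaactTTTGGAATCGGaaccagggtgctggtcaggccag
Traj35: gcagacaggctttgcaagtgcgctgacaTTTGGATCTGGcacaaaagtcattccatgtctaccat
Traj20: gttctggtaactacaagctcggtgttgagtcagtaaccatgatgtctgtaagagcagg

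Trbj2-7 lies at chr6:41543810-41543856, Trbj2-4 at chr6:41543362-41543410 and Trbj2-5 at chr6:41543453-41543501. Traj7 lies at chr14:54211470-54211528, Traj17 at chr14:54201775-54201837, Traj35 at chr14:54183774-54183838 and Traj20 at chr14:54199441-54199498. All 7 are on the plus strand, and each is annotated as a gene of its own that consists of the J exon. The motif was found in 44 of the 51 Traj, 11 of the 13 Trbj and both Trdj segments, and in 0 of the 4 Trgj segments. It was found in 1.191% of the central 60 bases of the transcripts of the release. Traj20, which was called higher in the cisplatin libraries, was among the 7 Traj segments in which these letters were not found. A match or its absence describes the letters alone.

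Trgj1, Trgj2 and Trgj3 are shown because they are close copies of each other, which bears on how their reads can be read. Here capitals mark the 8 positions at which the 3 sequences vary.
Trgj1: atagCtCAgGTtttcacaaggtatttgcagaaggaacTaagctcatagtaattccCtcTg
Trgj2: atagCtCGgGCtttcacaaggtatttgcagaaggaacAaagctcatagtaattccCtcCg
Trgj3: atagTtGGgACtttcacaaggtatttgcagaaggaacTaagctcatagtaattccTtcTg

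Trgj1 (chr13:19210343-19210402) and Trgj2 (chr13:19311245-19311304, minus strand) differed at 4 of 60 bases, and each differed from Trgj3 (chr13:19257117-19257176) at 6. The next closest pair of J segments of equal length, Traj17 and Traj39, was 69.8% identical. Reads on the 3 gamma segments are therefore uncertain.

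The deposited values are FPKM, fragments normalised for gene length and for the size of the library. Because a J segment is so short, FPKM of a J segment rests on few reads: a single read on 60 bases was worth 0.503 to 0.556 FPKM. FPKM multiplied by length was a whole multiple of 1 step per library (within 0.1 read for 100% of values), so reads could be rebuilt and are given beside the FPKM. The libraries held 30606569 to 32169496 rebuilt reads on genes, and those on J segments numbered 2923, 3048 and 3083 in the cisplatin libraries and 1772, 1634 and 1659 in the control libraries. The 3 cisplatin libraries were all higher.

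At least 1 read was found on 69 of the 70 segments, Trgj3 being the exception. The test was limma on log2(FPKM + 0.5), run on 14919 genes whose mean over the 6 libraries reached 0.5 FPKM and 10 rebuilt reads, with Benjamini-Hochberg adjustment over these genes. Of the segments, 42 reached this level (29 Traj and 13 Trbj) and 28 did not, among them all Trdj and Trgj segments. A gene was called when its adjusted p was under 0.05 and its change at least 2-fold. With the filter based on the mean over both groups, segments that were read mainly in one group could pass it through that group.

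Of the 42 segments tested, 9 were called higher in the cisplatin libraries and 0 lower, where 2.75% of all genes tested were called higher. At an adjusted p under 0.05 without the fold limit, 28 of the 42 segments were higher and 0 lower, against 31.5% of all genes tested that were higher. Every cisplatin library lay above every control library for 21 of the 42 segments, against 33.5% of all genes tested. All 42 log2 fold changes were above 0 on the FPKM scale, with a median of 0.74 beside a median of 0.02 over all genes tested, but relative to Trac, Trbc1 and Trbc2 the median was 0.02 for Traj and -0.04 for Trbj. Including the segments with too few reads to test, mean FPKM was higher in the cisplatin libraries for 66 of 70 segments and lower for 3, Traj44, Traj47 and Traj52.

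**Figure D1:**
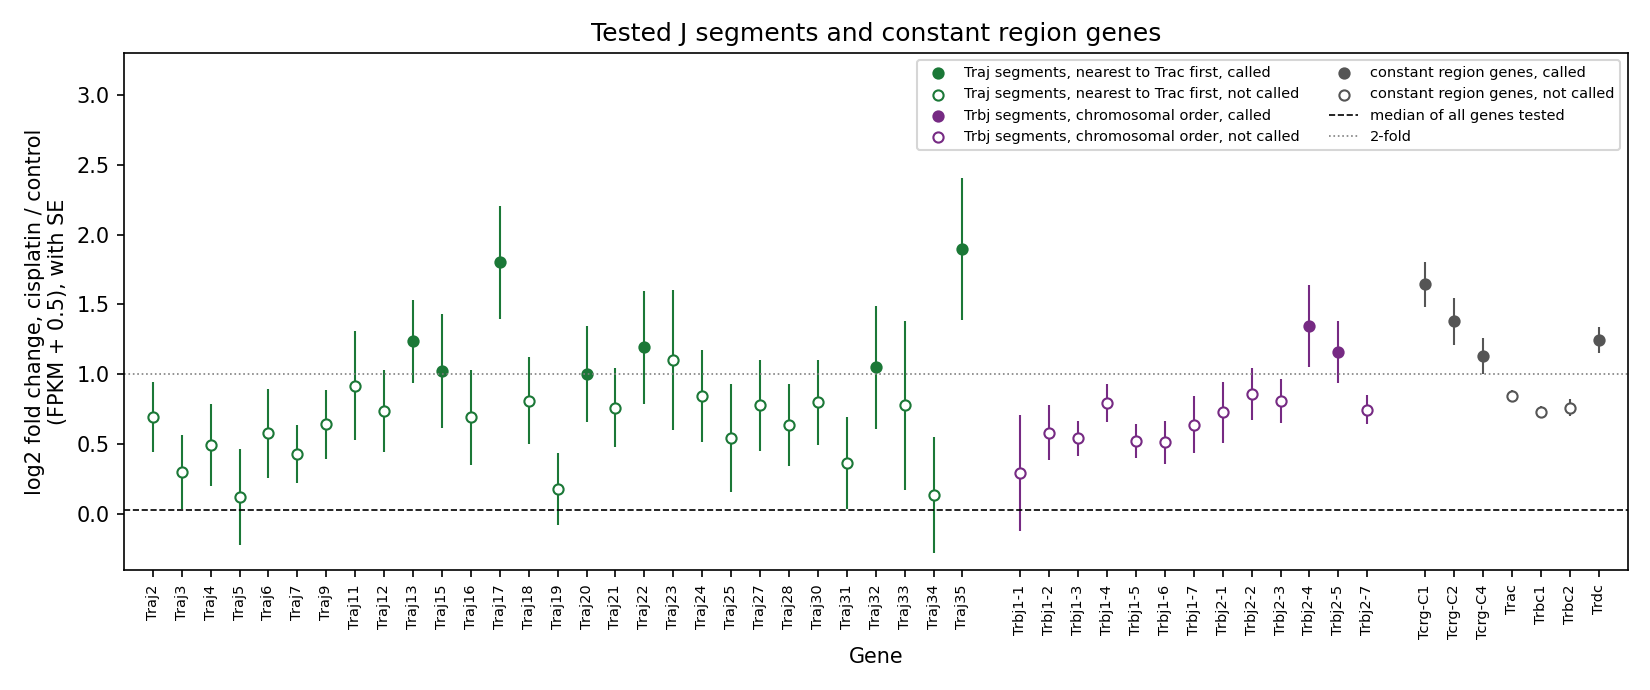
Log2 fold change (cisplatin against control, on FPKM + 0.5, limma) with its standard error for the 42 J segments tested and 7 constant region genes. Filled points were called and open points were not, the dashed line is the median of all genes tested and the dotted line is 2-fold. The Traj and Trbj points lie above the dashed line, most of them near Trac, Trbc1 and Trbc2, relative to which the median of the Trbj segments was -0.04.

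The constant region genes, to which the J segments are spliced, moved in the same direction. Trac, the alpha chain constant region, had 255, 248 and 243 FPKM in the cisplatin libraries and 132, 141 and 142 in the control libraries (log2 fold change 0.85 ± 0.04 SE, limma adjusted p = 1.32e-11). Trbc1 had 313, 316 and 310 against 178, 190 and 199 FPKM (log2 fold change 0.73 ± 0.04 SE, limma adjusted p = 1.44e-10). Trbc2 had 479, 510 and 472 against 253, 302 and 310 FPKM (log2 fold change 0.76 ± 0.06 SE, limma adjusted p = 6.95e-09). The groups did not overlap for any of the 3 genes, and none reached the 2-fold limit. Trbc1 and Trbc2 are close copies, so their reads may have been split between them by the counting. In bulk RNA, a larger share of T cells in a library and more receptor RNA per T cell cannot be told apart.

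Reads of J segments were then set against reads of their constant regions within each library, a ratio that does not depend on the scaling between libraries. Per 100 Trac reads there were 10.5, 12.8 and 14.7 Traj reads in the cisplatin libraries and 14.8, 11.5 and 12.7 in the control libraries. The groups overlapped, and the log2 difference of -0.04 ± 0.18 (SE) was smaller than its error. Per 100 reads of Trbc1 and Trbc2 there were 11.3, 10.4 and 10.8 Trbj reads in the cisplatin libraries and 13.1, 10.95 and 10.2 in the control libraries. These groups overlapped too (log2 difference -0.07 ± 0.12 SE). No difference beyond the spread between libraries was thus detectable in either of these ratios. For the first cluster alone there were 15.8, 15.6 and 15.8 Trbj1 reads per 100 Trbc1 reads in the cisplatin libraries and 19.2, 16.8 and 16.1 in the control libraries. This ratio was lower in every cisplatin library (log2 difference -0.14 ± 0.08 SE), and with 3 libraries a group an exact permutation test could not give a p below 0.1. For the second cluster the values were 8.16, 6.90 and 7.28 Trbj2 reads per 100 Trbc2 reads against 8.49, 6.97 and 6.06, and the groups overlapped (log2 difference 0.06 ± 0.16 SE).

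**Figure D2:**
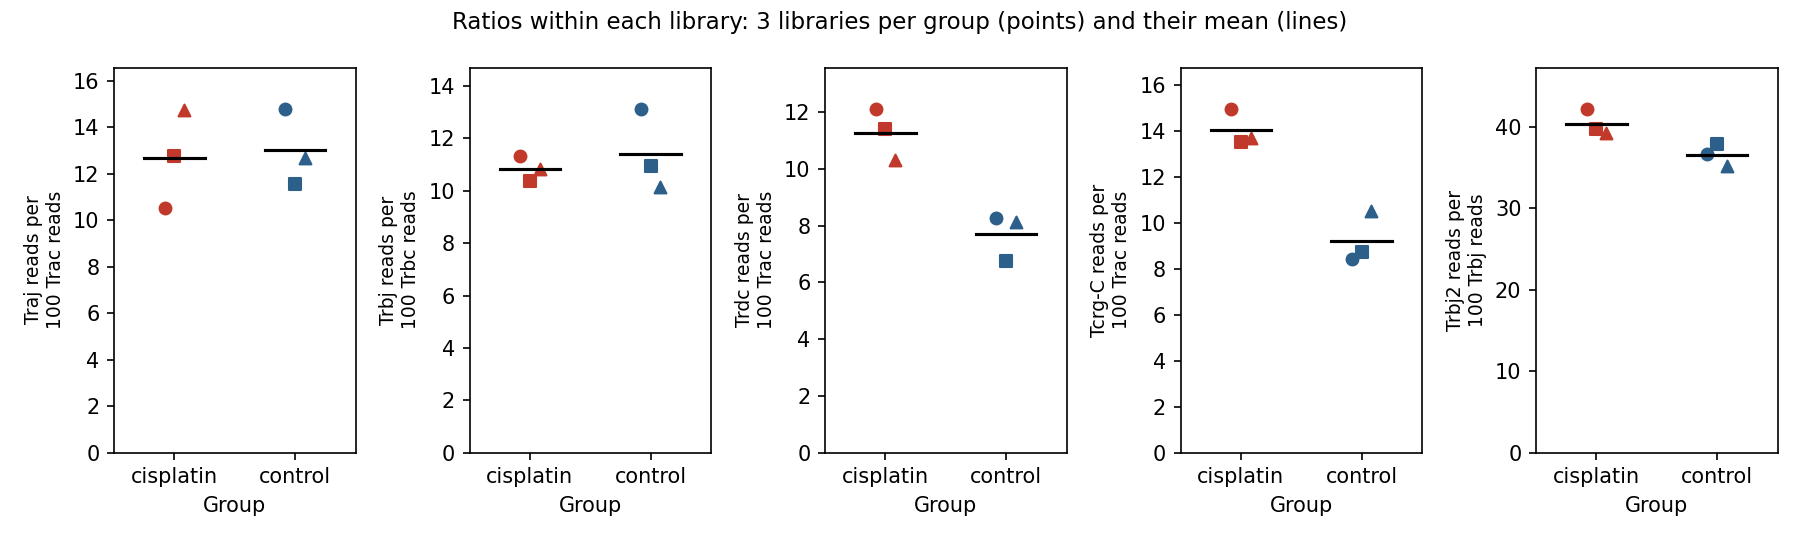
Reads per 100 reads of the named reference within each library, with cisplatin in red and control in blue, points for the 3 libraries of a group (circle, square and triangle for replicates 1, 2 and 3) and lines for their mean. Traj per Trac and Trbj per Trbc overlap between the groups, whereas Trdc per Trac, Tcrg-C per Trac and the Trbj2 part of the Trbj reads do not.

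The Trbj segments, which are used by the beta chains of alpha-beta T cells, carried 2073, 2030 and 1961 reads in the cisplatin libraries and 1215, 1154 and 1131 in the control libraries. Scaled to the reads on genes, this was 1.70 times as much in the cisplatin libraries. All 13 segments were tested. At an adjusted p under 0.05 12 were higher, and 2 were called, beside 31.5% and 2.75% of all genes tested. The log2 fold changes of the 13 ranged from 0.29 to 1.34.

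Trbj2-7 had the highest FPKM of the Trbj segments in 6 of 6 libraries. It had 268, 232 and 248 FPKM (408, 362 and 378 reads) in the cisplatin libraries and 154, 143 and 149 FPKM (217, 201 and 215 reads) in the control libraries. The groups did not overlap (log2 fold change 0.75 ± 0.10 SE, limma adjusted p = 7.85e-06). Its part of all Trbj reads was 17.8% to 19.7% in the cisplatin and 17.4% to 19.0% in the control libraries, ranges that overlapped. Next in level was Trbj1-5, with 205, 178 and 176 FPKM in the cisplatin libraries and 139, 141 and 111 in the control libraries (log2 fold change 0.52 ± 0.12 SE, limma adjusted p = 0.0014). In control replicate 2 the levels of Trbj2-7 and Trbj1-5 were nearly the same. Trbj1-4 had 185, 147 and 162 against 97.3, 79.8 and 108 FPKM (log2 fold change 0.80 ± 0.14 SE, limma adjusted p = 8.32e-05). Trbj1-3 had 132, 131 and 148 against 105, 86.5 and 90.5 FPKM (log2 fold change 0.54 ± 0.12 SE, limma adjusted p = 0.00116), and in both of these the cisplatin libraries were above all control libraries.

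The 2 Trbj segments called lie next to each other in the second cluster. Trbj2-4 had 22.7, 31.4 and 18.3 FPKM (36, 51 and 29 reads) in the cisplatin libraries and 12.2, 8.85 and 6.65 FPKM (18, 13 and 10 reads) in the control libraries (log2 fold change 1.34 ± 0.29 SE, limma adjusted p = 0.000766). Trbj2-5 had 47.3, 38.8 and 31.5 FPKM (75, 63 and 50 reads) against 15.6, 17.02 and 18.6 FPKM (23, 25 and 28 reads, log2 fold change 1.16 ± 0.22 SE, limma adjusted p = 0.000217). For both segments every cisplatin library was above every control library, and both calls were also made in each of the 6 fits that left out 1 library. Relative to Trac, Trbc1 and Trbc2 neither was called (limma adjusted p = 0.0628 for Trbj2-4 and 0.115 for Trbj2-5). The segment with the fewest reads, Trbj1-1, had 12.2, 11.3 and 14.1 FPKM against 18.7, 13.2 and 4.07, and its groups overlapped (log2 fold change 0.29 ± 0.42 SE, limma adjusted p = 0.563).

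**Figure D3:**
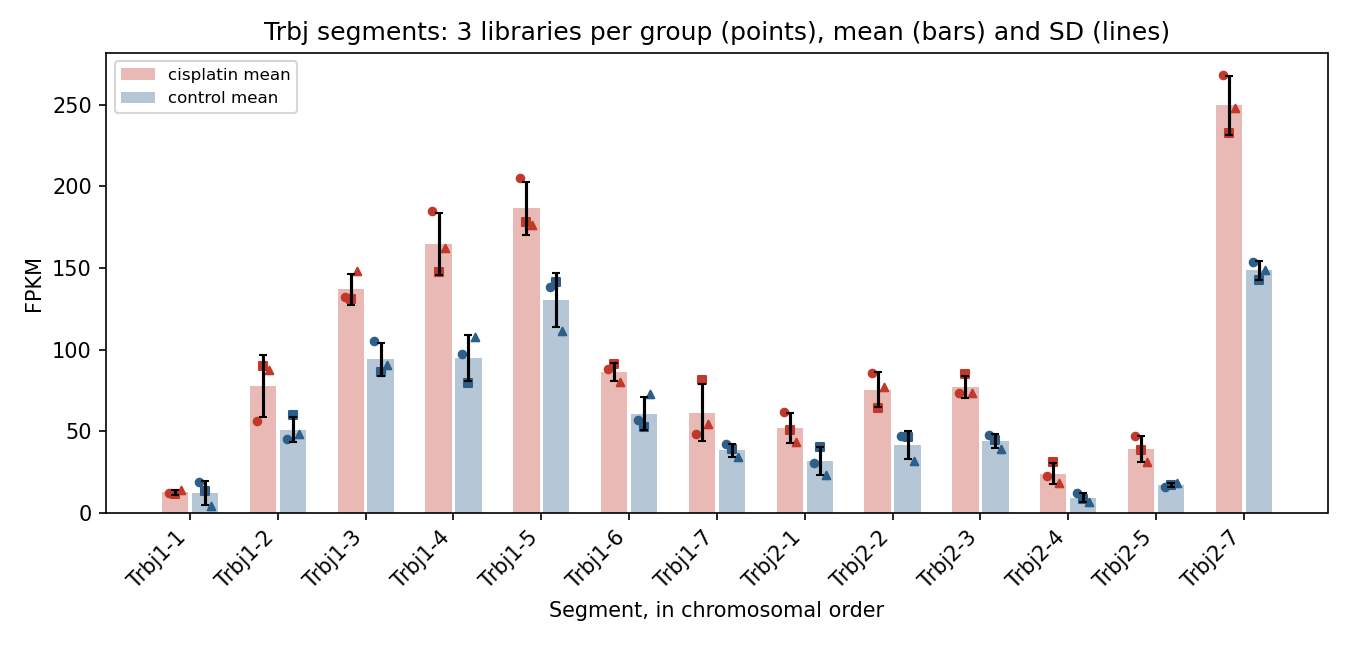
FPKM of the 13 Trbj segments in chromosomal order, with cisplatin in red and control in blue, points for the 3 libraries of a group, bars for their mean and lines for the SD. Trbj2-7 stands highest in both groups, Trbj1-1 lowest or near lowest, and the cisplatin mean is the higher of the pair at every segment on this FPKM scale, although relative to Trac, Trbc1 and Trbc2 the median of the Trbj segments was -0.04.

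The order of the Trbj segments by mean FPKM was nearly the same in both groups (Spearman's rho 0.99 over 13 segments, which share their libraries and lengths). The 2 clusters are each preceded by their own D segment, and the Trbj2 segments can be spliced only to Trbc2. The median log2 fold change was 0.54 over the 7 Trbj1 segments, with 0 called, and 0.83 over the 6 Trbj2 segments, with 2 called. Of all genes tested, 2.75% were called higher, and relative to Trac, Trbc1 and Trbc2 no Trbj segment was called. The Trbj2 cluster took 42.3%, 39.8% and 39.3% of the Trbj reads in the cisplatin libraries and 36.7%, 37.9% and 35.2% in the control libraries. These values did not overlap, and with 3 libraries a group an exact permutation test could not give a p below 0.1. Trbj2-5 was the only Trbj segment whose part of the Trbj reads was higher in every cisplatin library (3.62%, 3.10% and 2.55% against 1.89%, 2.17% and 2.48%), and for no Trbj segment was it lower in all 3. This is 1 separation among 13 segments with 3 libraries a group. It has no matching share over all genes and was not tested.

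The Traj segments, which are used by alpha chains, carried 812, 983 and 1087 reads in the cisplatin libraries and 546, 457 and 516 in the control libraries. Scaled to the reads on genes, this was 1.86 times as much in the cisplatin libraries. The reads were spread over many more segments than in the beta locus, and the median Traj segment had a mean of 5.91 FPKM where the median Trbj segment had 60.6. Of the 29 Traj segments tested, 16 were higher at an adjusted p under 0.05 and 7 were called, beside 31.5% and 2.75% of all genes tested. The log2 fold changes of the 29 ranged from 0.12 to 1.90.

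The level of a Traj segment went with its place in the row. Spearman's rho between FPKM and distance to Trac was between -0.86 and -0.90 in each of the 6 libraries, over 51 segments that spanned 61.7 kb and shared the library (a description, for which no p is given). The 17 segments nearest to Trac (Traj2 to Traj21, 2.62 to 21.7 kb away) held 59.4% to 69.6% of the Traj reads of a library. The next 17 (Traj22 to Traj39) held 23.0% to 34.0%, and the 17 farthest (Traj40 to Traj59, up to 64.3 kb away) held 4.58% to 9.24%. The median segment had 25 reads in the nearest set, 12.2 in the next and 2.17 in the farthest, and no segment of the farthest set had enough reads for testing. The same fall with distance was seen in both groups, and the order of the 51 segments by mean FPKM was alike in them (Spearman's rho 0.92).

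**Figure D4:**
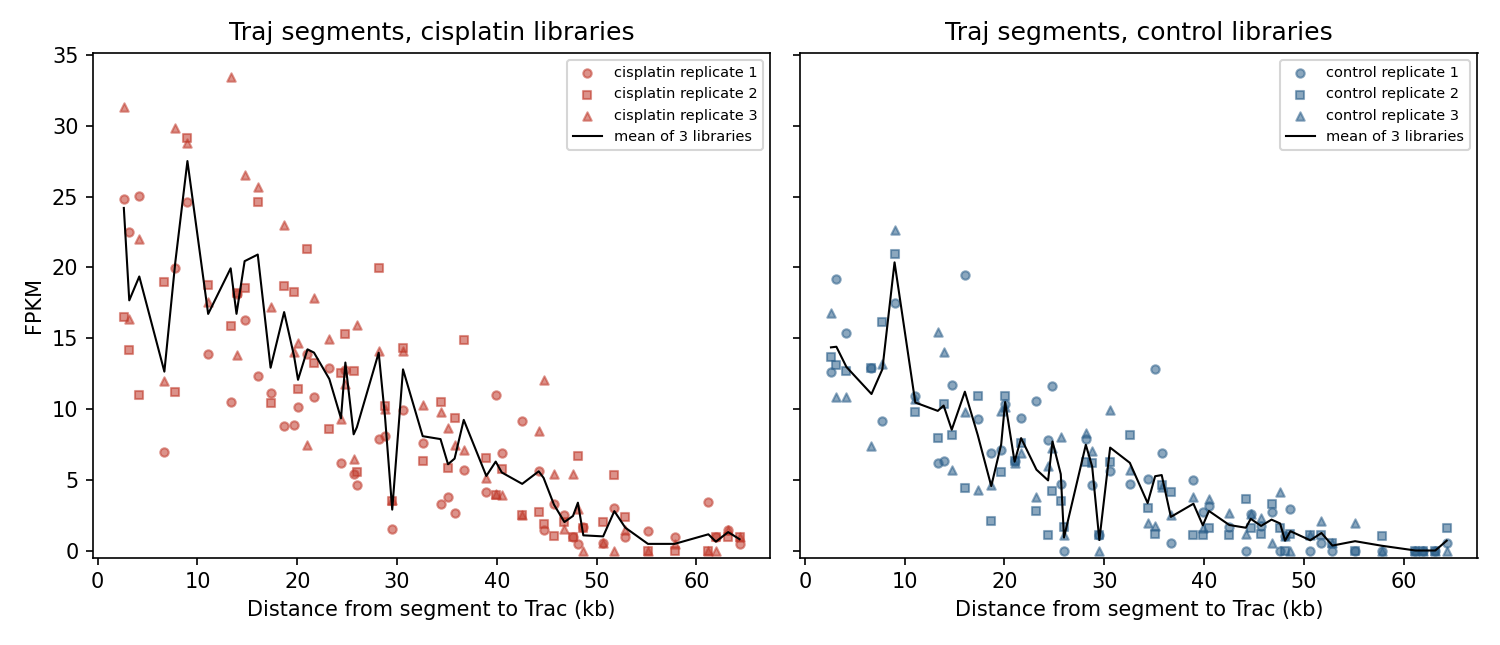
FPKM of the 51 Traj segments against their distance to Trac in kb, for the 3 cisplatin libraries (left) and the 3 control libraries (right), with a line through the group means. In both groups the values fall from the segments nearest to Trac to those beyond 40 kb, and single segments such as Traj29 lie below their neighbours.

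Single segments departed from this slope. Traj29, in which the motif was not found, had 3, 7 and 7 reads in the cisplatin libraries and 2, 2 and 0 in the control libraries. Its neighbours had more reads in every library, with 17, 22 and 21 against 9, 12 and 14 on Traj28 and 19, 28 and 27 against 10, 11 and 18 on Traj30. The 7 Traj segments without the motif were not all low, since Traj3 and Traj19 were among them. Traj3 had 22.5, 14.2 and 16.4 FPKM in the cisplatin libraries and 19.2, 13.1 and 10.9 in the control libraries, and the groups overlapped (log2 fold change 0.30 ± 0.26 SE, limma adjusted p = 0.337).

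Of the 4 Traj segments with the most reads (Traj7, Traj2, Traj3 and Traj6), 1 passed the test. Traj7 had 24.6, 29.2 and 28.8 FPKM (47, 57 and 55 reads) in the cisplatin libraries and 17.5, 20.9 and 22.6 FPKM (31, 37 and 41 reads) in the control libraries (log2 fold change 0.43 ± 0.20 SE, limma adjusted p = 0.0782). All 3 cisplatin values were higher, but the test was not passed, whereas it was with a pseudocount of 1 (limma adjusted p = 0.0326) and with quantile normalization (0.036). Traj2, the segment nearest to Trac among the members, had 24.8, 16.5 and 31.3 against 12.6, 13.6 and 16.8 FPKM and passed the test with overlapping groups (log2 fold change 0.70 ± 0.25 SE, limma adjusted p = 0.0229). The test was no longer passed without cisplatin replicate 1, without cisplatin replicate 3, without control replicate 1 or without control replicate 2 (limma adjusted p = 0.0621, 0.136, 0.0692 and 0.0581). Traj6 had 19.9, 11.2 and 29.9 against 9.13, 16.1 and 13.1 FPKM, where cisplatin replicate 2 lay among the controls (log2 fold change 0.58 ± 0.32 SE, limma adjusted p = 0.128), and the test was passed without that library (log2 fold change 0.94, limma adjusted p = 0.0143).

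Among the segments tested, the 2 largest differences were found in Traj35 and Traj17. By mean reads these ranked 26 and 14 among the 51 Traj segments, of which 29 were tested. Traj35 had 5.70, 14.9 and 7.12 FPKM (12, 32 and 15 reads) in the cisplatin libraries and 0.512, 4.10 and 2.51 FPKM (1, 8 and 5 reads) in the control libraries (log2 fold change 1.90 ± 0.51 SE, limma adjusted p = 0.00382). Traj17 had 8.83, 18.7 and 23.0 FPKM (18, 39 and 47 reads) against 6.87, 2.12 and 4.66 FPKM (13, 4 and 9 reads, log2 fold change 1.80 ± 0.40 SE, limma adjusted p = 0.00097). The groups did not overlap for either. The log2 fold change of Traj35 was 1.27 without control replicate 1 and 2.36 without control replicate 2, and that of Traj17 was 2.20 without cisplatin replicate 1 and 1.39 without control replicate 2. Traj17 and Traj35 were the 2 Traj segments called in each of the 6 fits that left out 1 library, and the 2 J segments called relative to Trac, Trbc1 and Trbc2 (log2 fold change 1.08 and 1.25). These fits share libraries and kept the genes of the main filter, so they are not independent support. Traj35 had a mean of 19.7 reads in the cisplatin and 4.67 in the control libraries, and Traj17 had 34.7 and 8.67. Both reached the mean of 10 reads only through the cisplatin libraries. Traj13 had 16.3, 18.5 and 26.5 against 11.7, 8.19 and 5.72 FPKM, again without overlap (log2 fold change 1.24 ± 0.30 SE, limma adjusted p = 0.00168), and without control replicate 3 its change was 0.99, just under the 2-fold limit.

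Each of the other 4 calls was lost when single libraries were left out. Traj22 had 12.9, 8.55 and 14.9 against 10.5, 2.78 and 3.80 FPKM (log2 fold change 1.19 ± 0.41 SE, limma adjusted p = 0.0168), and control replicate 1 lay within the cisplatin range. Its adjusted p was 0.0721 without cisplatin replicate 3, 0.0899 without control replicate 2 and 0.0565 without control replicate 3 (limma). Traj15 had 12.4, 24.6 and 25.7 against 19.4, 4.45 and 9.78 FPKM, also with control replicate 1 inside the cisplatin range (log2 fold change 1.02 ± 0.41 SE, limma adjusted p = 0.0386). Its adjusted p was 0.128, 0.137, 0.236 and 0.0669 (limma) without cisplatin replicate 2, cisplatin replicate 3, control replicate 2 and control replicate 3. Traj32 had 3.28, 10.5 and 9.82 against 5.05, 3.03 and 1.97 FPKM, with cisplatin replicate 1 within the control range (log2 fold change 1.05 ± 0.44 SE, limma adjusted p = 0.0473), and its adjusted p was 0.205, 0.179, 0.0935 and 0.164 (limma) without the same 4 libraries in turn. With a mean of 17 reads in the cisplatin and 6.67 in the control libraries, Traj32 too reached the mean of 10 only through the cisplatin libraries. The ninth call, Traj20, falls outside the 8 largest rises and was named after its values were seen. It had 13.9, 21.3 and 7.45 against 6.32, 6.33 and 6.18 FPKM, groups that did not overlap (log2 fold change 1.001 ± 0.34 SE, limma adjusted p = 0.0177), and its change was 0.96 without cisplatin replicate 1, 0.66 without cisplatin replicate 2 and 0.99 without control replicate 3.

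As a part of all Traj reads, no tested segment was higher in every cisplatin library, and Traj19 alone was lower in every one (2.46%, 2.34% and 2.67% against 3.48%, 4.38% and 3.68%). This is 1 separation among 29 tested segments with 3 libraries a group, and it was not tested. The FPKM of Traj19 was 10.1, 11.4 and 14.7 in the cisplatin and 10.4, 10.9 and 10.2 in the control libraries, values that overlapped (log2 fold change 0.18 ± 0.26 SE, limma adjusted p = 0.57). The scatter of the segments was wider than counting alone gives: within groups the variance of the reads was 2.58 times their mean at the median tested Traj segment and 2.57 times at the median Trbj segment.

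The 22 Traj segments not tested held few reads. Traj26 came closest to the limit, with 9, 11 and 31 reads in the cisplatin libraries and 0, 3 and 2 in the control libraries. The cisplatin libraries were all higher, and the ratio of reads, scaled by the FPKM denominators, was 9.45 (95% exact interval 3.79 to 30.3, which covers counting error only). Traj58, Traj56 and Traj57 had 0 reads in every control library. Traj58 had 3, 2 and 3 reads in the cisplatin libraries, Traj56 had 7, 0 and 0, and Traj57 had 2, 2 and 0. In all 3 the mean of both groups was within the floor of 3 reads per library, so no fold change is given, and 9 segments in all were at or under this floor in both groups.

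The delta and gamma J segments serve gamma-delta T cells, a smaller lineage that uses Trdc and the Tcrg-C genes. Trdj1 (chr14:54123138-54123188) had 9, 15 and 5 reads in the cisplatin libraries and 1, 5 and 2 in the control libraries, which touched at 5 reads (ratio 3.36, 95% exact interval 1.498 to 8.5). Trdj2 (chr14:54136779-54136837) had 7, 8 and 11 reads against 4, 12 and 1, with the highest value in a control library (ratio 1.42, interval 0.74 to 2.78). Each lies within an antisense gene, Gm30275 and Gm43434, and whether reads were counted by strand is not given in the sources used here, so their reads are uncertain. The other 68 segments overlapped no other gene of the table.

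Trgj2 had 9, 8 and 12 reads in the cisplatin libraries and 2, 0 and 0 in the control libraries. All cisplatin values were higher (ratio 13.4, 95% exact interval 3.40 to 116), and the control reads were within the floor of 3 per library. Its close copy Trgj1 had 5, 2 and 4 against 2, 4 and 4 reads (ratio 1.02, interval 0.393 to 2.68), and Trgj3 had 0 reads in 6 libraries, which allows up to 3 reads in each. Trgj4, whose sequence is not one of the close copies, had 8, 2 and 3 against 2, 2 and 5 reads, and the groups overlapped (ratio 1.34, interval 0.529 to 3.55). How reads that match more than 1 of the copies were treated is not given in the sources used here.

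The constant regions of the gamma and delta chains, with more reads, were called higher. Trdc had 7.47, 6.85 and 6.08 FPKM against 2.63, 2.30 and 2.79 (log2 fold change 1.25 ± 0.09 SE, limma adjusted p = 4.38e-09). Tcrg-C1 (log2 fold change 1.64), Tcrg-C2 (1.38) and Tcrg-C4 (1.13) were called as well (limma adjusted p = 1.13e-07, 1.80e-06 and 6.97e-07), while Tcrg-C3 had too few reads to test. Tcrg-C1, Tcrg-C2 and Tcrg-C3 are close copies whose reads may be split among them. Per 100 Trac reads there were 12.1, 11.4 and 10.3 Trdc reads in the cisplatin libraries and 8.26, 6.74 and 8.13 in the control libraries, and 15.0, 13.5 and 13.7 Tcrg-C reads against 8.45, 8.73 and 10.5. Both ratios were higher in every cisplatin library (two-sided exact permutation p = 0.1 for each, the smallest that 3 against 3 allows).

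The same ratio to the constant region was taken for the delta and gamma J segments. Trdj reads came to 1.71, 2.62 and 2.10 per 100 Trdc reads in the cisplatin libraries and 1.64, 6.37 and 0.906 in the control libraries. Trgj reads came to 1.91, 1.15 and 1.88 per 100 Tcrg-C reads against 1.92, 1.73 and 2.10. Neither ratio separated the groups. Of the 7 tested genes on a list of 8 for gamma-delta T cells, which includes these constant regions, all 7 were higher at an adjusted p under 0.05 and 5 were called (median log2 fold change 1.25). Apart from the constant regions already given, only Cd163l1 was called (log2 fold change 1.52), while Blk (0.84) and Zbtb16 (0.81) were not. Over all genes tested, 31.5% were higher and 2.75% were called higher.

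Genes of the pathway around the J segments were read from 3 lists. All 11 tested genes of the constant regions and CD3 were higher at an adjusted p under 0.05 (median log2 fold change 0.76), and 4 were called. Of all genes tested, 31.5% were higher and 2.75% were called higher. The 4 called were Trdc, Tcrg-C1, Tcrg-C2 and Tcrg-C4, named above, and no CD3 gene was called. Of 13 tested genes of V(D)J recombination, the cutting and joining of the segments, 6 were higher and 3 lower at an adjusted p under 0.05, with a median of 0.13, where 31.5% of all genes tested were higher and 32.3% lower. Rag1 and Rag2, which encode the recombinase that cuts beside each segment, were almost unread and were not tested. Rag1 had 6 reads in cisplatin replicate 1 and 0 in the others, and Rag2 had 1 read in control replicate 1 and 0 in the others. Dntt, which encodes the polymerase that adds bases at the V(D)J joints, had 0.145, 0.596 and 0.377 against 1.49, 1.71 and 1.67 FPKM (log2 fold change -1.31 ± 0.22 SE, limma adjusted p = 5.93e-05). Of the 13 tested genes of this list, Dntt was the 1 called lower and 0 were called higher, beside 11.4% and 2.75% of all genes tested. Of the 17 genes for factors that bind the enhancers of the receptor loci, 13 were higher and 2 lower, with a median of 0.41, beside the same 31.5% and 32.3%. Tcf7, the T-cell factor TCF1, had 499, 494 and 512 against 316, 313 and 323 FPKM (log2 fold change 0.66 ± 0.03 SE, limma adjusted p = 2.04e-12), while Runx1 was among those that were lower (log2 fold change -0.57).

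Markers of several cell types differed between the groups. All 16 alpha-beta T cell markers were higher at an adjusted p under 0.05 (median log2 fold change 0.55, 0 called), beside 31.5% of all genes tested. The summed level of the 16 was 1298 to 1333 FPKM in the cisplatin and 893 to 912 in the control libraries. All 10 tested of 12 ID8 tumour cell markers were called lower (median -2.35), where 11.4% of all genes tested were called lower, with a summed level of 221 to 227 FPKM against 1498 to 1573. The keratin gene Krt19 had 54.5, 51.6 and 52.5 against 651, 661 and 626 FPKM. All 10 B cell markers were higher at an adjusted p under 0.05 (median 0.59), beside the same 31.5%, with a summed level of 3619 to 3695 against 1690 to 1778 FPKM. Ighm, the heavy chain constant region of IgM, was the 1 of them called and gave most of this sum (mean 3220 against 1433 FPKM), and the other 9 summed to 421, 454 and 430 against 294, 297 and 309 FPKM. Of 10 myeloid markers 7 were higher and 2 lower at an adjusted p under 0.05, beside 31.5% and 32.3% of all genes tested. Of the 10, 5 were called higher (C1qa, C1qb, C1qc, Csf1r and Lyz2) and 0 lower, beside 2.75% of all genes tested called higher. The summed level of the 10 was 159 to 183 against 125 to 130 FPKM. The lysozyme gene Lyz2 carried this difference, with 92.5, 97.2 and 79.2 against 30.7, 29.0 and 32.6 FPKM, and without it the sum was lower in every cisplatin library (79.0, 85.7 and 80.2 against 94.1, 97.9 and 97.6 FPKM). Mpeg1, 1 of the 2 lower markers, was the largest part of that remaining sum, with 33.8, 36.7 and 32.4 against 59.3, 60.4 and 60.6 FPKM. The remaining sum thus does not speak for most of its markers. The reads summed over the 10 myeloid markers and scaled to the reads on genes overlapped between the groups (1.04 times as many in the cisplatin libraries). None of the B cell and myeloid markers was at 0 in these T-cell libraries. The part of these cells in the levels of the J segments was not tested. When values were centred on the alpha-beta T cell list, the median log2 fold change was 0.22 for Traj and 0.16 for Trbj, with 2 and 0 segments called, against -0.48 for all genes tested.

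The J segments of the immunoglobulin loci, which B cells use, gave a comparison of like length. Of 14, 11 were tested, with a median log2 fold change of 1.18. Of these, 11 were higher at an adjusted p under 0.05 and 7 were called, beside 31.5% and 2.75% of all genes tested. The summed reads of the 14, scaled to the reads on genes, were 2.25 times as high in the cisplatin libraries, beside 1.75 times for the 70 T-cell receptor J segments. The V segments of the T-cell receptor loci, which lie at the other end of the same rearranged exon, had a median log2 fold change of 0.76 over 77 tested, close to the 0.74 of the J segments. The differences between these sets were not tested.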

How the data were processed

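Per the labels, the submitters' processing notes name fastp, HISAT2 2.0.5, featureCounts 1.5.0-p3 and mm10, whereas the methods of the study name LifeScope. Strand setting and treatment of reads matching several genes are not given in the sources used here. The authors deposited FPKM, normalized for gene length and library. The table held 0 further sample columns, and columns of comparisons were not used.

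Reads were rebuilt by dividing FPKM times length by the step of each library. Denominators behind the FPKM were 1.03 to 1.05 times the reads on genes in the cisplatin and 0.976 to 0.982 times in the control libraries. Libraries of a group differed beyond sampling noise (chi-square per degree of freedom 5.11 to 5.99). FPKM is not a count, so limma 3.58.1 (R 4.3.3) was run on log2(FPKM + 0.5), with the variance prior as a trend on mean log2 rebuilt reads. Fold changes on this scale are understated for low genes. Steps were tested on simulated reads. Their scatter was set below that of the median tested Traj and Trbj segments. The simulation therefore does not measure how often J segments are called falsely. Other tools were python 3.11.15, numpy 2.4.6, pandas 2.3.3, scipy 1.17.1 and matplotlib 3.10.9.

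The table names gamma segments Trgj, and this prefix was used. Segments named were the 4 of each locus with the most reads, up to 8 largest rises and falls among calls, and all Trdj and Trgj segments, and other segments were named after their values were seen. The members, gene lists and rules were chosen with earlier results of these data known. Alternatives were other pseudocounts, filters, variance priors, scalings and thresholds, voom, a replicate block and leaving out each library. A search of the genome beside the segments was not run. Some genes of the lists are counted but are not reported here by name.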

Additional observations from a re-analysis of the deposited data

How the results depend on the processing

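The number of Traj segments called was 7 and ranged from 4 to 10 when each library was left out in turn. It was 4 with a pseudocount of 0.1 and 4 with 1, 11 with the filter on FPKM alone (which low segments could pass through their cisplatin libraries), 1 with a mean of at least 30 reads (6 tested), 2 when centred on the alpha-beta T cell list, 2 when centred on Trac, Trbc1 and Trbc2, and 16 by adjusted p alone. The number of Trbj segments called was 2 without each library in turn, 1 with at least 30 reads, 0 and 0 in the 2 centred fits and 12 by adjusted p alone. For the Trdj and Trgj segments, none of which reached the level for testing, it was 2 with the filter on FPKM alone and 1 with no filter (5 tested in each). Over all genes 2116 were called (411 higher and 1705 lower), 9524 by adjusted p alone and 4099 (44 higher, 4055 lower) when centred on Trac, Trbc1 and Trbc2, a centring chosen after seeing the data. Centred on the alpha-beta T cell list 77 were higher and 3005 lower. The median of all genes was 0.02, and 0.11 with voom, 0.15 with quantile normalization, -0.48 centred on the T cell list and -0.66 centred on the constant regions. Voom and quantile normalization called 865 and 625 genes higher. In the last centring the log2 fold change turned negative for Traj2 (-0.060), Traj3 (-0.45), Traj6 (-0.18), Traj7 (-0.33), Trbj1-3 (-0.23), Trbj1-5 (-0.26) and Trbj2-7 (-0.031), and on the T cell list for Traj3 (-0.25), Traj7 (-0.13), Trbj1-3 (-0.027) and Trbj1-5 (-0.050), none of which passed the test there. Without each library in turn the log2 difference of Traj reads per Trac read ranged from -0.16 to 0.09 and that of Trbj reads per Trbc read from -0.15 to 0.04. Depth limits the 28 untested segments.

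Same-numbered libraries of the 2 groups did not deviate together (correlations 0.056, 0.001 and -0.026, and of the libraries only those numbered 1 correlated best with their own number), so the numbers do not pair them. With the replicate block 6 Traj and 2 Trbj segments were called, Traj32 being lost, and 2116 genes in all.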

Other observations

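Of the 10 J segments annotated as pseudogenes, 4 were tested. At an adjusted p under 0.05 (limma) 1 of the 4 was higher, beside 31.5% of all genes tested. Of the 4, 0 were called, beside 2.75% of all genes tested called higher. The segment that was higher, Trbj2-6, stands between Trbj2-5 and Trbj2-7 in the second cluster. It had 303, 291 and 269 reads in the cisplatin libraries and 171, 127 and 127 in the control libraries, on average fewer only than Trbj2-7 and Trbj1-5 among the Trbj segments, and the groups did not overlap (log2 fold change 0.92, limma adjusted p = 1.66e-05). Traj1, the segment nearest to Trac, had 62, 67 and 29 reads on its 29 bases in the cisplatin libraries and 33, 30 and 31 in the control libraries. Its groups overlapped through cisplatin replicate 3 (log2 fold change 0.54, limma adjusted p = 0.099). The letters of the conserved turn were found in 1 of the 10 pseudogenes, which was neither of these.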
